A study of Mus musculus with 8 samples.

Results

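Mouse embryonic stem cells that had lost the enhancer called E3 (E3-KO, 2 samples) were compared with cells of the same line that had lost the enhancer called E1 (E1-KO, 2 samples), 4 of the 8 samples of the study. All 4 samples were ES-E14TG2a cells of the 129/Ola strain, edited with CRISPR/Cas9 and kept without feeder cells on gelatin, in a serum medium with leukaemia inhibitory factor (LIF), CHIR99021, an inhibitor of the kinase GSK3, and PD0325901, an inhibitor of the kinase MEK. The unedited cells (WT) and another enhancer knockout (E2-KO), 2 samples each, had the same strain and culture and entered the same statistical fit. The design text of the study concerns contacts between enhancers and promoters and what Sox2 does, so the comparison asks how the loss of E3 differs from the loss of E1 for Sox2 and for all other genes. Because both groups were edited, the unedited cells take no part in the contrast, and their values are given only for orientation. Where the enhancers lie and whether a knockout is 1 clone are not given in the sources used here. Each knockout formed a group of its own, so the lost enhancer cannot be told apart from the history of the line. The samples are called biological duplicates, but nothing says that they came from separate clones, and p-values then measure only the spread between these samples.

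An enhancer is a stretch of DNA that raises transcription of a gene from a distance, bound by factors that contact the promoter. In embryonic stem cells Sox2, with Oct4 (Pou5f1) and Nanog, forms the core of the network that keeps the cells able to form all tissues of the embryo. With LIF and inhibitors of GSK3 and MEK the cells are held in a naive state, which resembles the early epiblast, and genes of the lineages and of the formative state that follows are kept low.

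RNA levels were FPKM, the number of sequenced fragments per length of transcript and per depth of the sample. A gene was tested where its mean over the 8 samples reached 1 FPKM, by limma-trend on log2(FPKM + 1), and called where the p-value, adjusted by Benjamini and Hochberg over all 11268 genes tested, was under 0.05. Differences are E3-KO minus E1-KO in log2(FPKM + 1), a scale that makes changes of low genes look smaller. Sums of FPKM per sample lay between 454974 and 532007 over the 8 samples. Absolute depth was unknown. Relative to E1-KO replicate 1 it was estimated as 0.984 for E1-KO replicate 2, 0.886 for E3-KO replicate 1 and 1.146 for E3-KO replicate 2, so the E3-KO samples lay on both sides of the E1-KO samples. The summed level of 8 stem cell markers was 1949 to 2010 FPKM in E1-KO and 1682 to 1833 FPKM in E3-KO, with none at 0. Summed over 8 fibroblast and feeder markers it was 5.34 to 5.60 FPKM in E1-KO and 4.68 to 5.10 FPKM in E3-KO, with Dcn, Lum and Postn at 0 in both E1-KO samples. The samples thus had the markers of the labelled cell type and few of feeder cells.

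E3-KO and E1-KO differed in 2910 of the 11268 genes (25.8%), of which 1061 were higher in E3-KO (9.42%) and 1849 lower (16.4%). Chromosome 6 was counted apart, since nearly all of its called genes were lower in E3-KO. Off chromosome 6, 1022 of 10577 genes were higher in E3-KO (9.66%) and 1494 were lower (14.1%), together 2516 (23.8%). Of the 156 genes without a place in the annotation 20 were higher (12.8%) and 17 lower (10.9%), together 37 (23.7%). An absolute log2 difference of at least 1 besides was reached by 261 higher (2.47%) and 209 lower genes (1.98%) off chromosome 6 and by 8 higher (1.5%) and 68 lower genes (12.7%) on it. The higher share of lower genes rested on the scaling. On the authors' scale the median gene off chromosome 6 differed by -0.09 (log2), and 40.6% of the called genes were higher. Scaling by median ratios over genes off chromosome 6 brought that median to -0.01 and gave 1342 higher and 1052 lower genes (56.1% higher), and quantile normalization gave 1348 and 1077 (55.6% higher). Scaling without the 50 highest genes gave 1252 and 1049 (54.4% higher). All 1022 genes called higher on the authors' scale were also called higher with median ratios, and 1052 of the 1494 lower genes were also called lower. The counts leaned on the E1-KO samples, since 1058 genes were called without E1-KO replicate 1 and 1278 without E1-KO replicate 2.

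**Figure D1:**
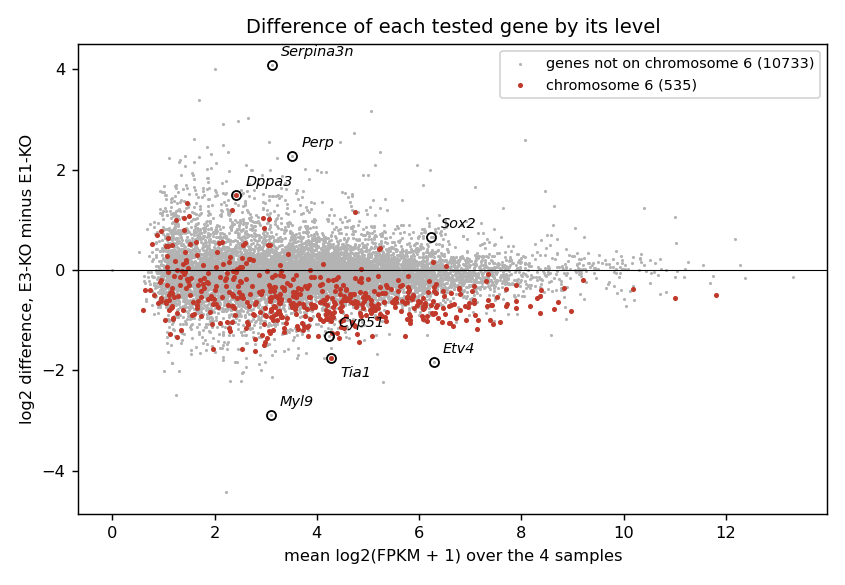
Each of the 11268 tested genes is a point, with its mean log2(FPKM + 1) over the 4 samples on the x axis and its log2 difference, E3-KO minus E1-KO, on the y axis. Genes of chromosome 6 (red, 535 genes) lie mostly below 0, whereas genes not on chromosome 6 (grey, 10733 genes, 156 of them without a place in the annotation) lie on both sides.

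Chromosome 6 held 535 tested genes, and 338 of them were called lower in E3-KO (63.2%) and 19 were called higher (3.55%), 357 in all (66.7%). For 81.9% of the genes of this chromosome both E3-KO samples were below both E1-KO samples and for 6.73% both were above, against 40.5% and 24.1% of the genes off it. After subtraction of the median of the other chromosomes, the median log2 difference of chromosome 6 from the E1-KO mean was -0.50 in E3-KO replicate 1 and -0.51 in E3-KO replicate 2. For the group means it was -0.50 on chromosome 6 and between -0.03 and 0.03 on each of the other 19 chromosomes. Against WT the relative median of chromosome 6 was 0.01 and 0.02 in the E1-KO samples and -0.47 and -0.50 in the E3-KO samples, so the samples that departed from WT were those of E3-KO. Without E1-KO replicate 1, 231 genes of the chromosome were called.

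The lower level ran along the whole of chromosome 6. When its tested genes were put in order and divided into 10 segments of 53 or 54 genes, the relative median was lowest in the segment from Shq1 to Zfp637 (-0.59) and nearest to 0 in the segment from Pyurf to Sema4f (-0.37). In the 10 segments 28 to 40 genes were called lower and 0 to 4 were called higher. The difference was seen at every level of expression, with a median of -0.31 over the 134 genes between 1 and 5 FPKM, -0.61 over the 171 between 5 and 20, -0.64 over the 175 between 20 and 100 and -0.69 over the 55 at 100 FPKM or more. At those levels the medians off chromosome 6 were -0.06, -0.09, -0.10 and -0.05.

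**Figure D2:**
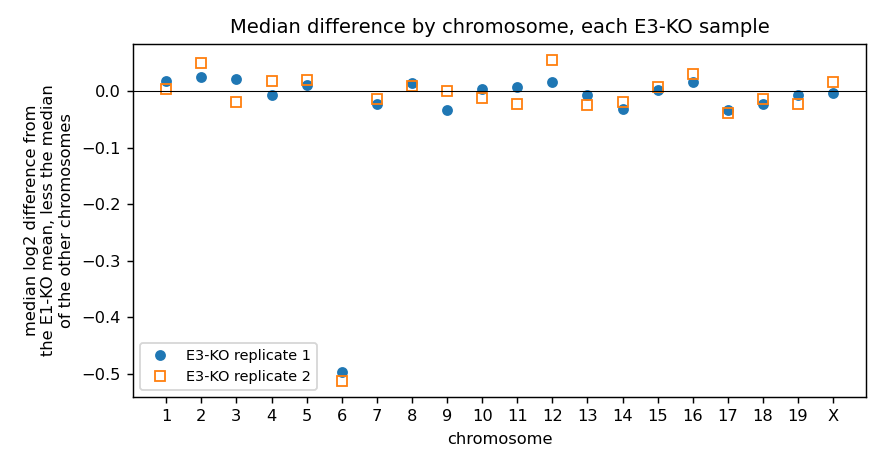
The median log2 difference from the E1-KO mean, less the median of the other chromosomes, is plotted for the tested genes of each chromosome (x axis) in E3-KO replicate 1 (filled circles) and replicate 2 (open squares). Chromosome 6 lies at -0.50 and -0.51, and all other chromosomes lie near 0 in both samples.

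Some genes of chromosome 6 went further than the chromosome. Tia1, which encodes an RNA-binding protein of stress granules, had 37.7 and 31.7 FPKM in the E1-KO samples and 8.73 and 10.5 FPKM in the E3-KO samples (log2 difference -1.75, standard error 0.13, limma-trend adjusted p = 0.000134). Both E3-KO samples were far below both E1-KO samples, and WT had 22.5 and 24.9 FPKM. Pianp (-1.61), Eif4e3 (-1.58), A2m (-1.58), which encodes the protease inhibitor alpha-2-macroglobulin, and Tmem40 (-1.50) followed. A few genes were higher in E3-KO against the direction of their chromosome. Dppa3, a maternal factor and marker of naive cells that protects DNA methylation in the zygote, had 1.65 and 2.84 FPKM in E1-KO and 6.87 and 9.27 FPKM in E3-KO (1.49, standard error 0.20, limma-trend adjusted p = 0.00118). The groups did not overlap, and both lay below the 15.0 and 18.0 FPKM of WT. Vmn1r53, a vomeronasal receptor gene with close relatives in the genome whose counts are therefore uncertain, was higher by 1.20, Rtkn by 1.16, Tes by 1.04 and Clstn3 by 1.02. All these genes of chromosome 6 kept their calls without each of the 4 samples.

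Sox2 (chromosome 3) had 58.0 and 60.3 FPKM in the E1-KO samples and 97.7 and 91.0 FPKM in the E3-KO samples. E3-KO was higher by 0.66 (standard error 0.10, limma-trend adjusted p = 0.00223), and both groups were below WT with 130.5 and 136.3 FPKM. Of the 8 tested genes that flank Sox2 on chromosome 3, none was called higher and 1 lower, Atp11b (-0.44, limma-trend adjusted p = 0.0227), whose call was lost without E1-KO replicate 1 (0.175), E3-KO replicate 1 (0.0678) or E3-KO replicate 2 (0.0604). SOX2 forms its best known complex with OCT4, whose gene Pou5f1 had 428 and 467 FPKM in E1-KO and 482 and 433 FPKM in E3-KO, overlapping groups (0.03, limma-trend adjusted p = 0.888). Among the 5 tested genes of the SOX family 3 were higher (1 without E1-KO replicate 2) and 2 lower (1 without E1-KO replicate 1 or E3-KO replicate 1). Of the lower ones, Sox4, a factor of progenitor cells, fell from 7.67 and 5.72 FPKM to 2.62 and 1.63 FPKM (-1.31, limma-trend adjusted p = 0.00316). Beside the counts of flanking and SOX genes, 9.66% of all genes off chromosome 6 were higher and 14.1% lower.

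The genes of naive pluripotency split. Off chromosome 6, 4 of 18 tested genes were higher in E3-KO and 1 was lower, 27.8% called in all and near the 23.8% of all genes there (9.66% higher, 14.1% lower), with a median of 0.02, against a median of -0.09 over all genes off chromosome 6. Klf2, a Kruppel-like factor of the naive state, rose from 59.1 and 67.0 FPKM in E1-KO to 138 and 116 FPKM in E3-KO (1.00, standard error 0.12, limma-trend adjusted p = 0.000615). WT lay at 109 and 121 FPKM, close to E3-KO. Its relatives Klf4 (-0.11) and Klf5 (-0.04) and the orphan receptor gene Esrrb (-0.30) were not called. The count of higher naive genes was 1 without E1-KO replicate 1 and 2 without E3-KO replicate 1, and the lower gene, Gbx2 (-0.88), was called without E1-KO replicate 2 but not without any other of the 4 samples.

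Genes of the formative state, the next step towards differentiation, included large falls in E3-KO. Etv4, an ETS factor induced by FGF and ERK signalling, had 149 and 144 FPKM in E1-KO and 42.2 and 38.8 FPKM in E3-KO (-1.83, standard error 0.09, limma-trend adjusted p = 4.97e-05). The E3-KO samples were near WT (43.9 and 41.8 FPKM), and the E1-KO samples were the high ones. Tcf15, a factor that primes cells for differentiation, had 21.4 and 18.8 FPKM in E1-KO and 5.51 and 7.01 FPKM in E3-KO (-1.55, limma-trend adjusted p = 0.0024). With Sox4 these were the 3 lower genes among 9 tested, while 2 were higher. Over all genes off chromosome 6, 14.1% were lower and 9.66% higher. The list as a whole did not fall, with a median of -0.01 beside -0.09 for all genes off chromosome 6. Both E3-KO samples were below both E1-KO samples in 3 of its genes and above them in 4. The shares over all genes off chromosome 6 were 40.5% and 24.1%. The higher genes of the list included the surface glycoprotein gene Cd24a (7.75 and 5.72 FPKM against 19.5 and 24.7 FPKM, 1.58, limma-trend adjusted p = 0.000375). The other, Dnmt3b (0.43), lost its call without E1-KO replicate 1, E1-KO replicate 2 or E3-KO replicate 2. Otx2, a regulator of the exit from naive pluripotency, had overlapping values (6.02 and 5.20 FPKM in E1-KO, 5.22 and 5.88 FPKM in E3-KO).

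Targets of FGF and ERK were lower in E3-KO for 6 of 17 tested genes and higher for 1, against 14.1% lower and 9.66% higher over genes off chromosome 6. The lower count was 5 with each of the 3 other scalings. With a mean of at least 5 FPKM, a filter that also takes out low members, it was 3. Both E3-KO samples were below both E1-KO samples in 8 genes of the list and above them in 7. Over all genes off chromosome 6 they were below in 40.5% and above in 24.1%. The median of the list was -0.16 beside -0.09 for all genes off chromosome 6. Spry4 and Dusp6, both induced inhibitors of this pathway, were lower beside Etv4. Spry4 fell from 5.83 and 5.91 FPKM in E1-KO to 1.32 and 1.86 FPKM in E3-KO (-1.42, limma-trend adjusted p = 0.00687). Dusp6 had 7.11 and 7.02 FPKM in E1-KO and 2.42 and 2.13 FPKM in E3-KO (-1.30, limma-trend adjusted p = 0.00317). The inhibitor PD0325901 in the medium acts on this pathway in all groups. Other members differed by little, such as Etv5 (0.13) and Spry1 (-0.12), neither of them called. The higher gene, Grb2 (0.51), lost its call without E1-KO replicate 1, E1-KO replicate 2 or E3-KO replicate 2.

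Genes of sterol synthesis were lower in E3-KO nearly throughout. Cholesterol is built from acetyl-CoA by a chain of enzymes whose genes are switched on together by SREBP2, the product of Srebf2, when cells are short of sterol. Of 24 tested genes of cholesterol and fatty acid synthesis 20 were called lower (83.3% of the list, against 14.1% of genes off chromosome 6) and none was called higher. In all 24 both E3-KO samples were below both E1-KO samples, which held for 40.5% of genes off chromosome 6. The median difference was -0.78. The list was chosen with earlier results of these data known, and its count fell to 12 without E1-KO replicate 2 and lay between 17 and 19 without each of the other 3 samples.

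The promoters of 3 of the fallen enzyme genes are shown because these genes moved together and SREBP2 acts with the factor NF-Y, which binds the letters CCAAT. Each is the 250 bases before the RefSeq start in GRCm38.p6, written 5′ to 3′ on the strand of the gene, with CCAAT or its reverse complement ATTGG in capitals. Cyp51 lies at chr5:4104698-4104947 on the minus strand, Msmo1 at chr8:64733579-64733828 on the minus strand and Idi1 at chr13:8885356-8885605 on the plus strand.
Cyp51: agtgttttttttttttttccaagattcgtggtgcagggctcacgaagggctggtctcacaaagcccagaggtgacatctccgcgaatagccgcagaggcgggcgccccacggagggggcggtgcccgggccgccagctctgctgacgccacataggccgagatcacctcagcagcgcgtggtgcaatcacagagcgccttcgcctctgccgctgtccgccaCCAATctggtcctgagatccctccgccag
Msmo1: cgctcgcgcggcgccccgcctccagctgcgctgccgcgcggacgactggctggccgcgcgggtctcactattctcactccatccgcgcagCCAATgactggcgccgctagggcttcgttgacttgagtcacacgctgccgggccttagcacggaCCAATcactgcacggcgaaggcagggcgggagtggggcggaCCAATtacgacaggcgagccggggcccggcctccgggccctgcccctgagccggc
Idi1: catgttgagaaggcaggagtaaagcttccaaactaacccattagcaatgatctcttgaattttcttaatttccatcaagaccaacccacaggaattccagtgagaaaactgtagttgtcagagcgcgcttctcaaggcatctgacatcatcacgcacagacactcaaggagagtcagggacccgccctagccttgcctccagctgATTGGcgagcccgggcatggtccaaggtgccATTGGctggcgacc
The window of Cyp51 holds 1 such box, that of Msmo1 3 and that of Idi1 2. Promoters were found in the RefSeq table for 15 of the 24 tested genes of the list. Of the 15 genes, 13 held CCAAT on either strand before at least 1 of their RefSeq starts (86.7%). Counted in the same way, 41.1% of 8320 tested genes off chromosome 6 and 37.5% of all 27025 genes of the table held it. Starts of the same gene could differ, since the windows of Dhcr7 held 0, 0 and 2 boxes and those of Pmvk 1 and 0. The letters TCACNCCAC, a form of the sterol regulatory element, were in none of the 15 and in 1.20% of the 8320. At so low a share, their absence from 15 genes cannot show that these promoters lack the element. Other forms of the element were not searched. A match to letters is a description of the window, not a binding site.

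The falls reached along the pathway. Msmo1, the methylsterol monooxygenase, had 112 and 110 FPKM in E1-KO and 43.1 and 46.5 FPKM in E3-KO (-1.29, standard error 0.14, limma-trend adjusted p = 0.000479). Cyp51, the lanosterol demethylase, had 27.1 and 30.9 FPKM in E1-KO and 11.6 and 10.4 FPKM in E3-KO (-1.32, standard error 0.11, limma-trend adjusted p = 0.000248). Dhcr7, which makes cholesterol in the last step, had 35.0 and 39.3 FPKM in E1-KO and 13.2 and 14.8 FPKM in E3-KO (-1.34, standard error 0.16, limma-trend adjusted p = 0.000701). In these 3 genes the E3-KO samples lay below WT (Msmo1 60.4 and 56.5, Cyp51 22.7 and 20.3, Dhcr7 19.03 and 21.3 FPKM), and the E1-KO samples lay above it. Idi1, an isomerase early in the pathway, had 12.4 FPKM in each E1-KO sample and 5.08 and 5.25 FPKM in E3-KO (-1.12), where WT had 5.19 and 5.60 FPKM. The feedback gene Insig1 fell by 1.08. A smaller difference was seen for Srebf2 itself (-0.45), whose call was lost without E1-KO replicate 1 (limma-trend adjusted p = 0.0564) or E1-KO replicate 2 (0.0622). Among the genes of fatty acid synthesis, Fasn (-0.27) and Acaca (-0.32) were not called. Scd1 and Scd2 were called lower, at -0.89 to -0.58 for Scd1 and -0.559 to -0.303 for Scd2 over the alternatives. Scd1 kept its call under 14 of 15 alternatives and Scd2 under 7.

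Sugar metabolism had lower genes on chromosome 6 and off it. The glycolysis and lactate list holds transporters, enzymes and a kinase that inhibits pyruvate dehydrogenase. Off chromosome 6, 7 of 17 tested genes were lower (14.1% over all genes there) and none was higher, with a median of -0.35. Pdk1, that kinase, had 55.0 and 42.6 FPKM in E1-KO and 17.6 and 18.1 FPKM in E3-KO (-1.39, standard error 0.18, limma-trend adjusted p = 0.000959), with WT at 45.8 and 50.9 FPKM. The count off chromosome 6 was 1 without E1-KO replicate 1, 4 without E1-KO replicate 2, 3 without E3-KO replicate 1 and 8 without E3-KO replicate 2. On chromosome 6, where 63.2% of all genes were called lower, 5 of 6 were lower with a median of -1.09. In all 6 both E3-KO samples were below both E1-KO samples, as for 81.9% of the genes of the chromosome, so these counts lie near those of the chromosome. The call of Eno2, 1 of those 5 lower genes, was lost without E1-KO replicate 1 or E3-KO replicate 2. Slc2a3, a glucose transporter, had 210 and 211 FPKM in E1-KO and 90.8 and 94.3 FPKM in E3-KO (-1.18, limma-trend adjusted p = 0.000155). Ldhb, a lactate dehydrogenase subunit, had 53.4 and 51.2 FPKM in E1-KO and 17.8 and 23.6 FPKM in E3-KO (-1.31, limma-trend adjusted p = 0.000395). For both genes WT was far above both knockouts, with 479 and 495 FPKM for Slc2a3 and 224 and 227 FPKM for Ldhb. Aldoa (0.15), Eno1 (0.03) and Pgam1 (0.06), abundant enzymes off chromosome 6, were not called.

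Targets of p53, the transcription factor that answers DNA damage and other stress, were higher in E3-KO. Of 19 tested genes of the list 14 were called higher (against 9.66% of genes off chromosome 6) and none lower, with a median of 0.58. Perp, a membrane protein of cell death and adhesion, had 4.71 and 3.79 FPKM in E1-KO and 31.8 and 18.3 FPKM in E3-KO (2.27, standard error 0.22, limma-trend adjusted p = 0.000325). Pmaip1, which encodes the death protein NOXA, had 3.82 and 4.60 FPKM in E1-KO and 14.3 and 12.7 FPKM in E3-KO (1.48, standard error 0.17, limma-trend adjusted p = 0.000547). For Pmaip1 it was E1-KO that differed from WT (13.6 and 12.4 FPKM), whereas for Perp WT lay between the groups at 10.4 and 12.1 FPKM.

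Mdm2, which encodes the ligase that degrades p53, rose from 51.9 and 47.4 FPKM in E1-KO to 85.9 and 89.7 FPKM in E3-KO (0.81, limma-trend adjusted p = 0.000594), and Ccng1 rose by 0.84. The groups did not overlap for either gene. Trp53, the gene of p53 itself, had 174 and 173 FPKM in E1-KO and 187 and 165 FPKM in E3-KO and was not called (0.02). Cdkn1a, the cell cycle inhibitor p21, had 49.8 and 49.99 FPKM in E1-KO and 82.1 and 62.3 FPKM in E3-KO (0.51, limma-trend adjusted p = 0.0371), a call lost without E1-KO replicate 1 (0.15), E1-KO replicate 2 (0.136) or E3-KO replicate 1 (0.185). Of the list, 8 genes were called without E1-KO replicate 1, 10 without E1-KO replicate 2, 9 without E3-KO replicate 1 and 15 without E3-KO replicate 2.

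**Figure D3:**
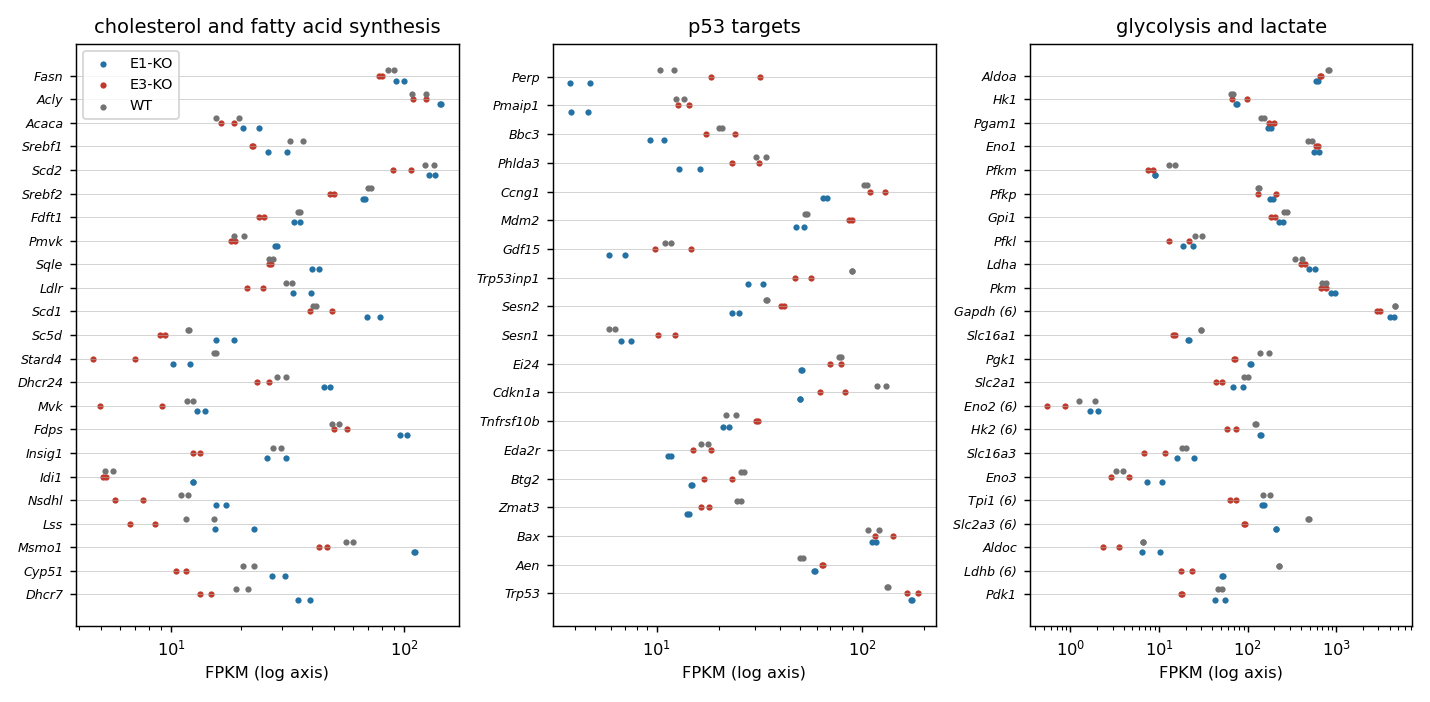
FPKM on a log axis of tested members of 3 lists (y axis, chromosome 6 genes marked with 6) in the E1-KO (blue), E3-KO (red) and WT (grey) samples, 1 point a sample. Red points lie left of blue ones in all sterol and fatty acid genes shown, and right of them in 17 of 19 p53 targets. Over all genes off chromosome 6, both E3-KO samples were below both E1-KO samples in 40.5% and above them in 24.1%.

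Several markers of tissues outside the embryo proper were higher in E3-KO. Off chromosome 6, 5 of 8 tested genes of primitive endoderm, the layer that forms the yolk sac, were higher (9.66% over all genes there) and none lower (median 0.59). The higher genes were Gata6, Hnf4a, Lama1, Col4a1 and Sparc. All tested genes of the list but Gata6 and Hnf4a also belong to the basement membrane list below, so the counts of both lists overlap. Gata6, the master regulator of primitive endoderm, had 0.344 and 0.350 FPKM in E1-KO and 3.72 and 1.76 FPKM in E3-KO (1.42, standard error 0.24, limma-trend adjusted p = 0.00315), with WT at 1.04 and 1.15 FPKM. Lama1, a laminin chain of the basement membrane, had 4.73 and 4.91 FPKM in E1-KO and 9.03 and 9.71 FPKM in E3-KO (0.83, limma-trend adjusted p = 0.00168), both far below the 28.2 and 29.4 FPKM of WT. Sox17 and Sox7 did not reach the mean of 1 FPKM needed for a test, and Gata4 was not analysed here. Without E1-KO replicate 2 the count of the list was 2. Summed over 6 primitive endoderm markers found in the files, the level was 1.28 to 1.43 FPKM in E1-KO and 3.78 to 6.23 FPKM in E3-KO. WT lay between them at 3.25 to 3.36 FPKM. Most of the E3-KO sum was Gata6 and Hnf4a (1.70 and 1.57 FPKM), both counted above. Sox17, Sox7, Foxa2 and Afp stayed under 1 FPKM in all 4 samples. The part of this summed level in the result was not tested. In bulk RNA, more cells of a type and more RNA per cell cannot be told apart.

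Of the basement membrane genes, 6 of 11 were higher in E3-KO (9.66% over all genes off chromosome 6), among them Lama1, Col4a1 and Sparc, already counted above. Lama5, another laminin chain, was also higher, with 24.3 and 25.8 FPKM in E1-KO and 47.7 and 44.1 FPKM in E3-KO (0.85, limma-trend adjusted p = 0.00151). The count was 3 without E1-KO replicate 1, E1-KO replicate 2 or E3-KO replicate 2 and 4 without E3-KO replicate 1. Trophectoderm genes, those of the later placenta, were higher for 3 of 7 off chromosome 6 (9.66% over all genes there) and for 5 without E3-KO replicate 2. Eomes, a factor of the early trophoblast, had 7.01 and 5.29 FPKM in E1-KO and 2.92 and 4.76 FPKM in E3-KO and was not called (-0.58, limma-trend adjusted p = 0.0648). Gata3, a factor that specifies this layer, had 2.12 and 1.19 FPKM in E1-KO and 8.86 and 4.84 FPKM in E3-KO (1.54, standard error 0.28, limma-trend adjusted p = 0.00479). Gata2 on chromosome 6 rose against the chromosome, from 0.822 and 1.06 FPKM to 3.80 and 2.50 FPKM (1.08, limma-trend adjusted p = 0.00302). Tead4, also on chromosome 6, was lower, with 24.1 and 28.1 FPKM in E1-KO and 21.2 and 18.2 FPKM in E3-KO (-0.39, limma-trend adjusted p = 0.0499), a call lost without E1-KO replicate 1 (0.0825), E1-KO replicate 2 (0.274) or E3-KO replicate 2 (0.183) and kept under 3 of 15 alternatives. The summed level of 6 trophectoderm markers was 6.79 to 9.44 FPKM in E1-KO and 10.6 to 13.6 FPKM in E3-KO, and its part was not tested either. Of these markers Gata3 was higher and Eomes lower, as given above. Cdx2, Elf5, Hand1 and Krt7 stayed under 1 FPKM in all 4 samples, so the higher sum rested on Gata3.

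**Figure D4:**
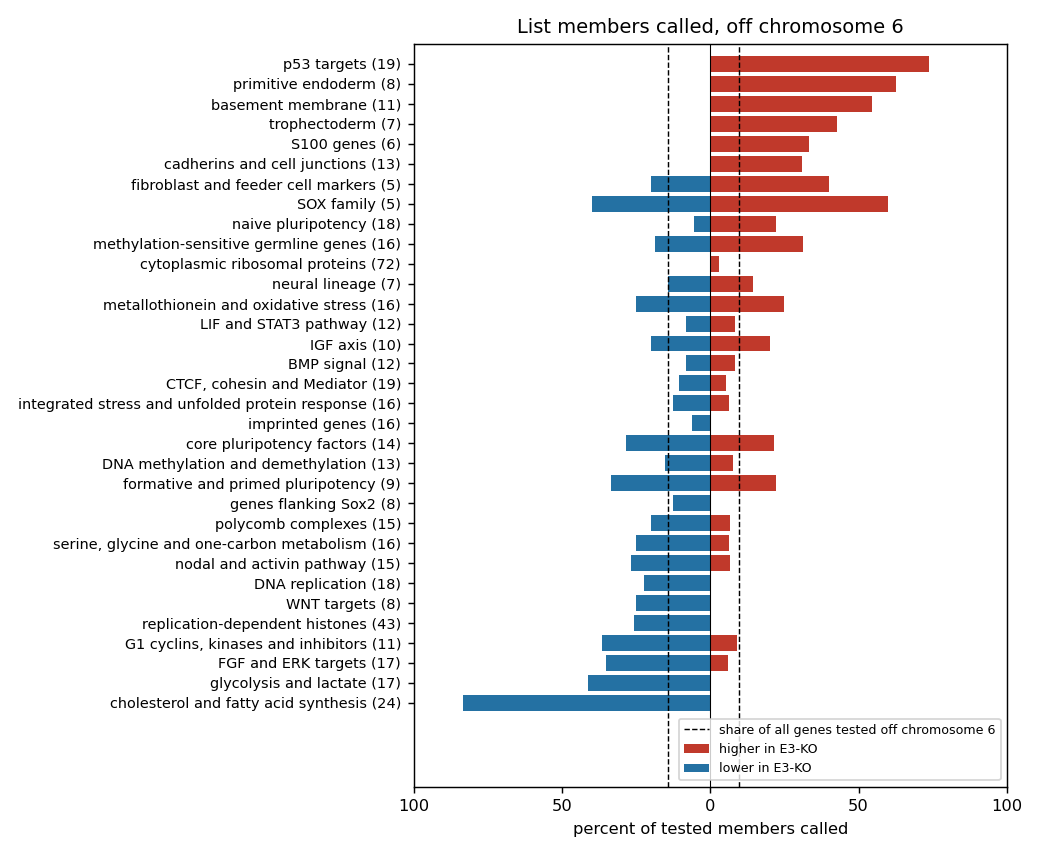
Bars give the percent of tested members off chromosome 6 called higher (red, to the right) or lower (blue, to the left) in E3-KO for each list with at least 5 tested members (number in brackets). Dashed lines mark 9.66% higher and 14.1% lower, the shares over all genes off chromosome 6. The p53 targets lie farthest to the right and the cholesterol and fatty acid genes farthest to the left.

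Most genes with the largest rises off chromosome 6 were low in E1-KO. Serpina3n, which encodes a secreted inhibitor of serine proteases, went from 1.16 and 1.08 FPKM in E1-KO to 34.9 and 34.8 FPKM in E3-KO, a ratio of means of 31.1 (4.08 on the log2 scale, standard error 0.20, limma-trend adjusted p = 4.97e-05). WT, at 2.49 and 3.88 FPKM, was near E1-KO, so the E3-KO samples were the ones apart. Its neighbour in the same gene cluster, Serpina3k, had 0.101 and 0.361 FPKM in E1-KO and 6.33 and 6.54 FPKM in E3-KO (2.60). Genes of this cluster are close copies, so reads may be divided among them with error.

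Fbp2, a fructose bisphosphatase of gluconeogenesis, had 1.24 and 1.13 FPKM in E1-KO and 22.2 and 12.7 FPKM in E3-KO (3.03, standard error 0.23, limma-trend adjusted p = 0.000134). Cd200, a surface glycoprotein that restrains myeloid cells, had 1.11 and 0.818 FPKM in E1-KO and 13.2 and 15.7 FPKM in E3-KO (2.97, standard error 0.19, limma-trend adjusted p = 9.06e-05). In both genes E3-KO was above E1-KO and WT alike. Tex101, a germ cell surface protein, rose by 2.90, Pramel6, a PRAME family member of early embryos with close copies in the genome, by 2.73, and Parm1 by 2.56. Igll1 (2.55), the adhesion receptor gene Adgrg6 (2.50), Sgcz (2.46), Gsto1, a glutathione transferase (2.35), and the glucose cotransporter gene Slc5a1 (2.31) followed. All 12 genes kept their calls without each of the 4 samples.

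Several of the largest falls off chromosome 6 were in genes that E1-KO expressed above WT. Myl9, the light chain of smooth muscle myosin, had 31.7 and 15.8 FPKM in E1-KO and 2.69 and 1.66 FPKM in E3-KO (-2.90, standard error 0.35, limma-trend adjusted p = 0.000706). WT had 2.97 and 1.11 FPKM, overlapping E3-KO, and the E1-KO samples were the high ones. Acta2, smooth muscle actin, fell with it, from 6.19 and 2.42 FPKM to 0.210 and 0.244 FPKM (-2.02, limma-trend adjusted p = 0.00193). For Sulf1, which trims sulfate from heparan sulfate, E1-KO had 10.9 and 8.54 FPKM and E3-KO 1.14 and 1.44 FPKM (-2.22, standard error 0.15, limma-trend adjusted p = 0.000102). Here WT lay with E1-KO, at 8.93 and 9.51 FPKM.

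Nnat, an imprinted gene expressed from the paternal copy, had 14.3 and 11.7 FPKM in E1-KO and 2.32 and 3.33 FPKM in E3-KO (-1.88, standard error 0.18, limma-trend adjusted p = 0.000325). Smarcd3, a subunit of the BAF chromatin remodeller, had 12.2 and 9.62 FPKM in E1-KO and 1.67 and 2.64 FPKM in E3-KO (-1.93, limma-trend adjusted p = 0.00031). Both genes were higher in E1-KO than in WT, where Nnat had 4.06 and 4.53 FPKM and Smarcd3 5.34 and 5.10 FPKM. The other falls were Hist1h4j (-2.24), a histone H4 gene with near-identical copies, the phosphodiesterase gene Pde9a (-2.21), Emb (-2.13), Pla2g1b (-2.08), Arhgef25 (-2.05), the endothelin-converting enzyme Ece1 (-2.04), the membrane protease Mmp14 (-1.84) and Pimreg (-1.84). Each of these genes kept its call without each of the 4 samples.

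**Figure D5:**
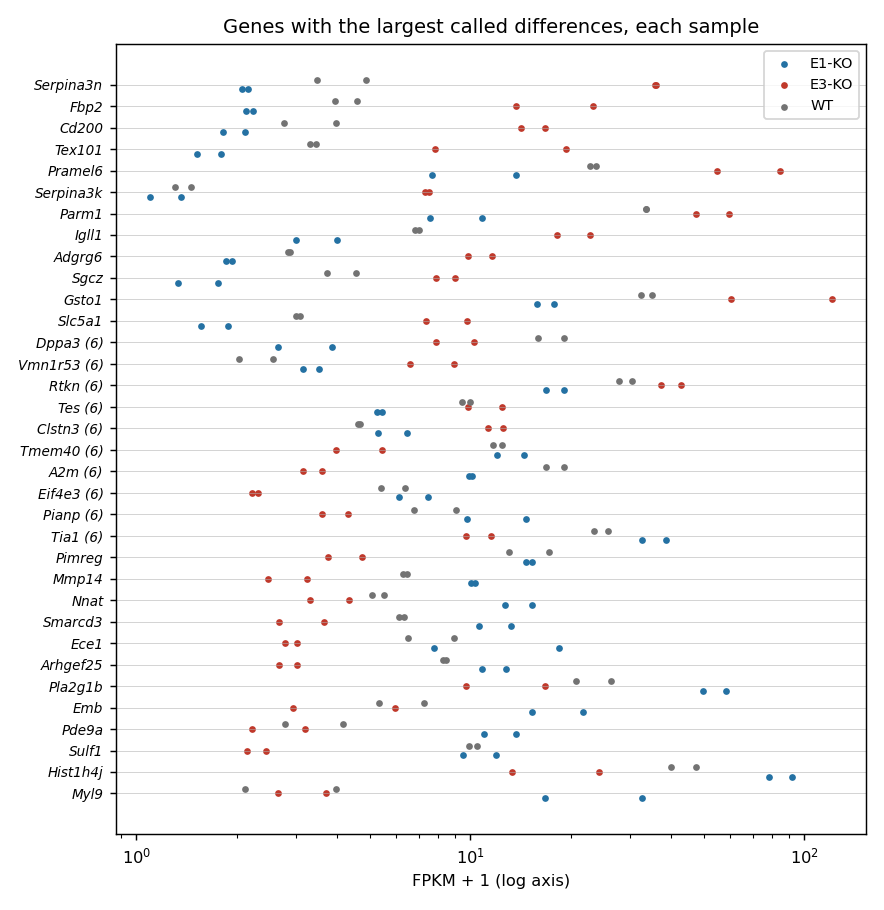
FPKM + 1 on a log axis in each E1-KO (blue), E3-KO (red) and WT (grey) sample, 1 point a sample, for the 12 genes with the largest rises and the 12 with the largest falls off chromosome 6 and the 5 of each kind on chromosome 6 (marked with 6). Red and blue points do not overlap in any row, as the choice of these genes required, and WT lies now with one group, now with the other or between them.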

How the data were processed

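Total RNA of 8 samples had been sequenced as paired-end reads of 150 bases after ribosomal depletion, per the labels' protocols. Per the submitters' processing notes, Trimmomatic 0.36, TopHat2 2.0.12 and Cufflinks 2.2.1 and the build mm9 were used. The deposited values were taken as FPKM, the unit Cufflinks gives, with no further normalization stated by the authors. Each sample listed 18774 rows with 17812 identifiers, of which 660 were repeated. Of these, 572 were kept at the row that fitted the chromosome order and 88 left out, which gave 17724. Symbols came from a gene name table (17262 matched) and chromosomes from GENCODE M21 (17195 placed). That annotation is of GRCm38, so no coordinates of it are printed beside mm9 values.

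Genes whose mean reached 1 FPKM were tested on log2(FPKM + 1) with limma 3.58.1 (trend) in R 4.3.3, all 8 samples in the same fit (4 residual degrees of freedom), two-sided, with Benjamini-Hochberg adjustment. The whole set of samples was fitted because 2 a group leave few degrees of freedom. Groups came from the sample titles. Tested on simulated data for E3-KO against E1-KO over 11268 genes, 200 genes changed by 1 (log2) were recovered at 98.5%, with 12 unchanged genes called, those changed by 0.5 at 15%, with 1, and those changed by 2 at 100%, with 14. With no gene changed 0 were called. The changed genes were drawn from those averaging at least 5 FPKM on the log scale, with normal noise independent between samples. Far fewer genes were changed than were called in the data. The recovery rates are therefore not known for lower genes or for the cut used on the data.

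Genes named were Sox2, up to 3 called genes a list with the largest absolute difference, 12 higher and 12 lower off chromosome 6 and 5 of each on it (called, groups not overlapping, at least 5 FPKM in the higher group, no predicted genes), and list members given by value where a list is described. Members and lists were chosen with earlier results of these data known. Absolute depth is unknown, so no counting error is given. Relative depth came from the most frequent ratio of low values (15.5% to 19.2% of them lay at it) and is rough. Alternatives were other scalings, filters, pseudocounts, handling of repeated identifiers, a fit of the 4 samples alone, a replicate block, no trend, an added fold threshold and leaving out each sample. Plots were made in Python 3.11.15 with matplotlib 3.10.9. A single list member is counted and is not reported here.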

Additional observations from a re-analysis of the deposited data

How the results depend on the processing

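Under the alternatives run, the log2 differences of the 214 called genes given or counted in lists and the median of chromosome 6 kept their sign, while genes that were not called were not followed, and the 3 other scalings turned the excess of lower into one of higher genes off chromosome 6. The relative median of chromosome 6 was -0.294 with all genes above 0, -0.552 with a mean of at least 5 FPKM, -0.559 with a pseudocount of 0.1, -0.487 with repeated identifiers summed and -0.496 to -0.518 with a sample left out. With a mean of at least 5 FPKM 668 genes off chromosome 6 were higher. With an absolute log2 difference of at least 1, 470 genes were called off chromosome 6, 261 higher and 209 lower, and 76 on it. With a sample left out, 1058 to 2270 genes were called off chromosome 6 (525 to 1034 higher, 533 to 1236 lower) and 231 to 314 on it, where the lone sample is assumed to vary like the other groups and fewer degrees of freedom remain. Sox2 passed under all 15 alternatives tried for it, at 0.613 to 0.715 with a sample left out. Replicate numbers did not pair the samples (correlation of deviations -0.028 between E1-KO and E3-KO, across genes). With the replicate number as a block 2309 genes were called off chromosome 6 (961 higher, 1348 lower) and 341 on it, and Sox2 differed by 0.664. Of the 214 genes, 115 kept their call under all alternatives.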

Other observations

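Genes of further groups differed between E3-KO and E1-KO. Of 43 tested replication-dependent histone genes, which supply the chromatin of dividing cells, 11 were lower in E3-KO and none higher (25.6% called, median -0.39, 14.1% lower over genes off chromosome 6). They are near-identical copies, so the values of single genes are uncertain, and the count was 5 without E1-KO replicate 1, 7 without E3-KO replicate 2 and 14 without E3-KO replicate 1. Hist1h4k had 620 and 575 FPKM in E1-KO and 205 and 286 FPKM in E3-KO (-1.30, limma-trend adjusted p = 0.00083). Of 72 cytoplasmic ribosomal protein genes off chromosome 6, 2 were called, both higher, and 10 were called higher without E3-KO replicate 2 and 1 without each other sample. Those 2 were 2.78% of the ribosomal list, whereas 9.66% of all genes off chromosome 6 were higher and 23.8% were called in either direction. The polycomb gene Pcgf1 on chromosome 6 was lower (23.9 and 25.3 FPKM against 10.6 and 8.25 FPKM, -1.31, limma-trend adjusted p = 0.000892).

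The germline genes silenced by DNA methylation were divided, with 5 of 16 higher and 3 lower off chromosome 6, where 9.66% of all genes were higher and 14.1% lower. The higher ones were 2 without E1-KO replicate 1, E1-KO replicate 2 or E3-KO replicate 1, and the lower ones 1 without E1-KO replicate 1, E1-KO replicate 2 or E3-KO replicate 2. Tdrd12, a factor of the piRNA pathway, had 1.22 and 1.43 FPKM in E1-KO and 2.99 and 2.83 FPKM in E3-KO (0.75, limma-trend adjusted p = 0.00333), both far below WT with 16.9 and 16.4 FPKM. On chromosome 6, Mbd4, a DNA glycosylase that binds methylated DNA, fell from 18.4 and 19.8 FPKM to 7.14 and 8.46 FPKM (-1.20, limma-trend adjusted p = 0.000325). The imprinted gene Mest, also on chromosome 6, had 91.4 and 74.0 FPKM in E1-KO and 30.0 and 35.0 FPKM in E3-KO (-1.32, limma-trend adjusted p = 0.000651), where E3-KO lay near WT (31.8 and 31.9 FPKM). Of 13 junction genes 4 were higher (9.66% over genes off chromosome 6, and 2 without E1-KO replicate 2). Among them Snai1, a repressor of E-cadherin, had 1.29 and 2.22 FPKM in E1-KO and 4.67 and 4.48 FPKM in E3-KO (1.04, limma-trend adjusted p = 0.00357), above WT with 0.453 and 0.422 FPKM. S100a11, a calcium-binding protein, rose from 86.0 and 85.7 FPKM to 172 and 166 FPKM (0.97, limma-trend adjusted p = 0.000495), where E1-KO lay near WT (93.5 and 88.2 FPKM).

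Of 7 tested neural genes 1 was higher and 1 lower in E3-KO, with a median of 0.04. That was 28.6% called, near the 23.8% of all genes off chromosome 6. Nefl, a neurofilament gene, had 15.3 and 15.0 FPKM in E1-KO and 29.0 and 25.5 FPKM in E3-KO (0.80, limma-trend adjusted p = 0.00803). Pax6, an eye and forebrain regulator, had 2.50 and 2.28 FPKM in E1-KO and 0.612 and 0.941 FPKM in E3-KO (-0.94, limma-trend adjusted p = 0.0136), a call lost without E1-KO replicate 1 (0.0827), E1-KO replicate 2 (0.0547) or E3-KO replicate 1 (0.0755). The summed level of the 4 neural markers found was 3.82 to 4.16 FPKM in E1-KO and 0.998 to 2.01 FPKM in E3-KO.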
